A study of Mus musculus with 6 samples.

Results

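The region described here is the stretch of gene-poor DNA that begins 10 kb upstream of the Wnt4 promoter viewpoint and ends 90 kb upstream of it, on mouse chromosome 4 (mm9, chr4:136742108-136822108). Its members were taken by position alone, as every fragment end that the deposited tables list in that interval, and there were 238 of them among 369081 listed ends of the chromosome. Contacts were measured by 4C-seq, which fixes chromatin, cuts it, ligates neighbouring pieces and then sequences whatever was joined to 1 chosen piece, the viewpoint. The 6 libraries came from cultured mouse mammary epithelium, 3 from the established line BC44 and 3 from the established line HC11. Both lines were grown in RPMI1640 with 10% serum and insulin at 5 µg/ml, and the HC11 medium alone also held EGF at 10 ng/ml, so that line and EGF cannot be told apart. Neither line carried a stated treatment or allele, and each line is a single model of its cell type. DNA contact counts hold no RNA, so the cell type was not checked against marker genes. The labels do not say that replicates came from separate cultures, so p-values here measure only the spread between libraries, which may be technical.

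Wnt4 encodes a secreted WNT ligand that luminal cells of the mammary gland make in response to progesterone and that acts on neighbouring cells during branching. The series concerned control of this gene by Grainyhead-like proteins (GRHL), transcription factors of epithelial cells, and by the progesterone receptor (PGR), acting through looped enhancers. An enhancer that lies in the intergenic DNA next to its gene contacts the promoter against a high background, because contact frequency falls with distance along the chromosome. Wnt4 itself (136833404 to 136855641, plus strand) began 11.3 kb beyond the near edge of the stretch. The next coding gene on the other side, Zbtb40 (136535647 to 136604716, minus strand), ended 137 kb beyond the far edge. In GENCODE release M1 the stretch held no coding gene and only 2 annotated genes, both pseudogenes on the minus strand. These were Gm13002 (136778556 to 136779237, 52.9 to 53.6 kb upstream), with 5 members inside, and Gm13005 (136775675 to 136776314, 55.8 to 56.4 kb upstream), with 1 member inside. All other members were intergenic.

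The unit of the assay is a fragment end. DpnII cuts at GATC, NlaIII then cuts at CATG, and the short piece between a DpnII site and the nearest NlaIII site is what was circularised and read. The pieces of 5 members are shown first, because the results below return to them. Each is written 5′ to 3′ from the DpnII site, with the DpnII site and the closing NlaIII site in capitals, and was read from the mm9 sequence of chromosome 4. The first is the member with the highest mean level, the second the only member called as a contact, and the last 3 are the members 50 to 60 kb upstream at which every BC44 library lay above every HC11 library.
end at 136802649, 29.5 kb upstream, minus strand: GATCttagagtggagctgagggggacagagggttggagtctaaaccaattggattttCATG
end at 136765891, 66.2 kb upstream, plus strand: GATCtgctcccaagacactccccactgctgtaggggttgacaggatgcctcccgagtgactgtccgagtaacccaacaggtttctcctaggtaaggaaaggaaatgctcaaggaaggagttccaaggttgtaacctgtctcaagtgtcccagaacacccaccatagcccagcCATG
end at 136778622, 53.5 kb upstream, plus strand: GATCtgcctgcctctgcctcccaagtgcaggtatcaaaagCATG
end at 136781355, 50.8 kb upstream, minus strand: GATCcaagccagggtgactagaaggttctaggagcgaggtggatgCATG
end at 136773867, 58.2 kb upstream, minus strand: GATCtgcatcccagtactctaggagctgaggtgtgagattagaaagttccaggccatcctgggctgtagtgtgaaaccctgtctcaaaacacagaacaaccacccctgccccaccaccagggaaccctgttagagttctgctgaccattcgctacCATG

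The listed ends depended on the sites of both enzymes, which did not account for the whole list. The stretch held 205 whole DpnII fragments, with a median length of 269 bp. Of these, 63 held no NlaIII site and none of their ends was listed (0 listed ends), as was so for all 141163 such fragments of the chromosome. The other 142 fragments had 284 ends, of which 236 were listed, and 2 further members belonged to fragments that cross an edge of the stretch. Both ends were listed for 99 fragments and 1 end for 38. The fragments without an NlaIII site were therefore outside the measurement. So were the unlisted ends of the other fragments, and why those were not listed was not examined.

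Libraries held 96690 to 1755373 reads, of which 13588 (HC11 replicate 2) to 181657 (BC44 replicate 3) fell in the stretch. The labels used here state no primer position, and the viewpoint, 136832108, is the end with the most reads summed over the 6 libraries. It rests on the replicate 1 libraries of BC44 and HC11, where it held 40.5% and 44.3% of all reads. In the other 4 it held 0.134% to 0.466%, and an end of the stretch had more reads in each, so the shares below are also given within same-numbered pairs. Levels are given as local CPM, the reads at an end or window for every 1000000 reads lying 10 to 400 kb from the viewpoint on either side. HC11 replicate 2 was the shallowest, with 1 read worth 22.0 local CPM there against 1.95 to 3.46 in the others.

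Most members were contacted in every library. Reads were present in all 6 libraries at 167 of the 238 members, in 1 to 5 libraries at 49, and in none at 22. In BC44 83.2%, 83.6% and 85.7% of members had at least 1 read in replicates 1, 2 and 3, and values for HC11 were 84.9%, 76.5% and 81.1%. HC11 replicate 2 was the lowest and the lines overlapped. The 95% Wilson interval, which covers counting error only, ran from 70.7% to 81.4% in HC11 replicate 2 and from 80.7% to 89.6% in BC44 replicate 3. The difference of means, HC11 minus BC44, was -3.36 percentage points (84.2% ± 1.35 against 80.8% ± 4.21, SD, n = 3, two-sided exact permutation p = 0.3, adjusted p = 0.375 over 5 measures). It was -1.19 points without HC11 replicate 2, -5.39 without HC11 replicate 1 and -7.003 when an end needed at least 10 reads. With every library thinned to 93823 reads the shares were 79.1% to 80.6% in BC44 and 76.5% to 79.7% in HC11.

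Read levels were uneven between members. The mean level over 6 libraries ranged from 0 to 8751 local CPM with a median of 902, and 41 of the 238 members held 50% of the summed level. The member with the highest mean, at 136802649, stood at 10796, 10726 and 6575 local CPM in BC44 replicates 1, 2 and 3. In HC11 it stood at 9502, 5881 and 9027. The lines overlapped at this end, with means of 9366 ± 2417 and 8136 ± 1968 (SD, n = 3). The second highest, at 136811569 and 20.5 kb upstream, had 11579, 4261 and 11848 local CPM in BC44 and 9515, 2181 and 8469 in HC11. Replicate 2 was the lowest library of each line there. The third, at 136819669 and 12.4 kb upstream, was more even, with 7458, 7645 and 8573 local CPM in BC44 and 6911, 8238 and 5145 in HC11. Of the 10 highest members, 8 lay within 40 kb of the viewpoint, and the lines overlapped at all 10. The 2 exceptions were the ends at 136779118 (53.0 kb, inside Gm13002), with a mean of 4786, and at 136756399 (75.7 kb), with a mean of 5318 local CPM. The latter mean rested on HC11 replicate 3, with 12704 local CPM against 3127 to 4754 in the other 5 libraries.

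The length of the piece between the DpnII and the NlaIII site went with the level. The 68 members with 51 to 100 bp had a median of 1860 local CPM, and the 63 with 101 to 200 bp had 1531. The 46 members with 201 to 400 bp had 353, and the 11 with over 400 bp had 2.09. These medians are over members and are a description, since members share their libraries. The 50 shortest members, with at most 50 bp, had a median of 534 local CPM over the 6 libraries, and here replicate 1 stood apart. Their median was 821 in BC44 replicate 1 and 698 in HC11 replicate 1, against 22.0 to 103 in the other 4 libraries. Those were 58.1 and 103 for BC44, and for HC11 22.0 and 46.7. Reads were present in all 6 libraries at 44.0% of these shortest members and at 89.1% of those with 201 to 400 bp. Among the listed ends elsewhere within 10 to 400 kb the order was alike, with medians of 122.6, 307, 191, 69.4 and 0.648 local CPM from the shortest class to the longest. Members whose first bases (up to 50) occur at 1 DpnII end of the genome numbered 230.

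**Figure D1:**
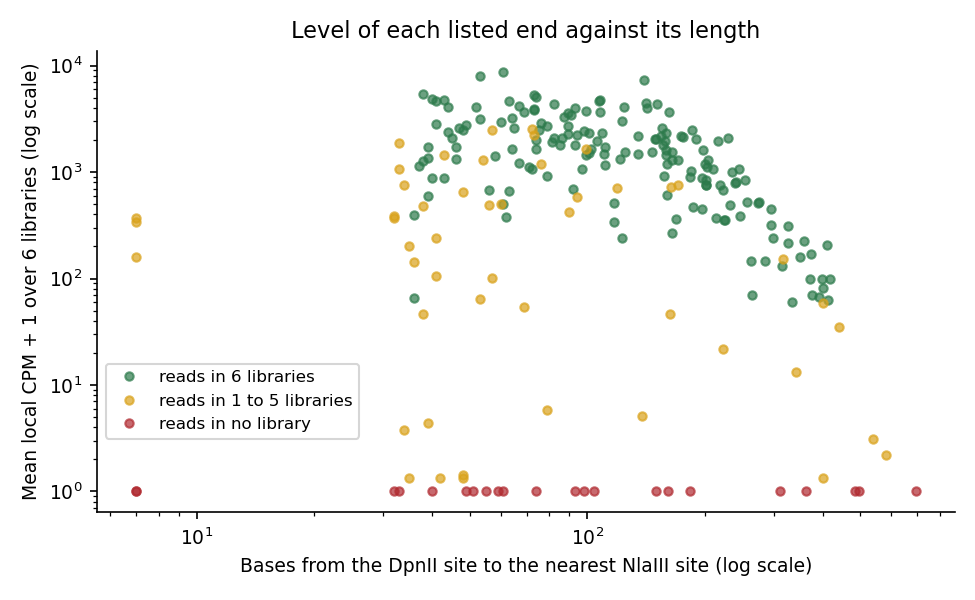
Each point is 1 of the 238 listed ends of the stretch. The x axis gives the bases from its DpnII site to the nearest NlaIII site and the y axis its mean local CPM plus 1 over 6 libraries, both on log scales. Colours show in how many libraries the end had reads, and 22 ends had reads in none. Levels are highest between 51 and 200 bp and fall at longer lengths.

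The ends of 1 fragment report on the same piece of chromatin, yet their levels were not alike. For the 99 fragments with both ends listed, Spearman's rho between the mean levels of the 2 ends was -0.04, a description across fragments that share libraries. The median fold between the ends of a fragment was 8.11 (on local CPM plus 1), and 43 of the 99 differed by over 10-fold. Distance from the viewpoint had a rho of -0.22 with the level, GC content of the piece 0.03 and fragment length 0.13, each over 238 members. Libraries resembled each other more than this. Pearson's r of log2(local CPM + 1) over the members ranged from 0.680 to 0.918 between libraries of 1 line and from 0.665 to 0.883 between lines. The comparisons below use sums over many ends.

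The first comparison of lines asked what part of the promoter's nearby contacts fell in the stretch. It took 34.6%, 36.3% and 37.7% of reads 10 to 400 kb away in the BC44 libraries and 29.0%, 29.9% and 33.5% in the HC11 libraries, in replicate order. The lowest BC44 library was above the highest HC11 library. The means were 36.2% ± 1.55 and 30.8% ± 2.38 (SD, n = 3), a difference of -5.42 percentage points (two-sided exact permutation p = 0.1, the smallest that 3 libraries against 3 can give, adjusted p = 0.167 over 5 measures). HC11 was lower in 3 of 3 same-numbered pairs, with differences of -5.66, -6.34 and -4.25 points in replicates 1, 2 and 3, so the direction was the same in the replicate 1 pair and in the others. The difference was -5.37 points with only ends of 51 to 200 bp, which were chosen after the values were seen. It was -2.76 points as a share of all reads over 2 kb away, where the shares themselves were smaller (18.0% in BC44 and 15.3% in HC11). It was -0.13 points when captured ends were counted in place of reads. Such a count changes only where an end gains its first read or loses its last.

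The stretch was also set against its mirror image, the 194 listed ends 10 to 90 kb downstream, which run through Wnt4 towards Cdc42. Upstream reads made up 72.5%, 73.7% and 75.5% of reads at these distances in BC44 and 67.7%, 66.8% and 69.2% in HC11. An even level per listed end would give 55.1%, and all 6 libraries lay above it (two-sided exact sign-flip permutation p = 0.03125 over n = 6 libraries taken as independent). Same-numbered libraries deviated together, and over the 3 replicate numbers the exact sign-flip permutation p was 0.25, the smallest possible. Per listed end, the stretch held 2.15, 2.28 and 2.51 times the downstream level in BC44 and 1.71, 1.64 and 1.83 times in HC11. The lines did not overlap, and the upstream share was 73.9% ± 1.49 in BC44 and 67.9% ± 1.24 in HC11 (SD, n = 3). That difference of -6.00 percentage points had an exact permutation p = 0.1 and an adjusted p of 0.167. The downstream stretch itself held 632 to 676 local CPM per listed end in BC44 and 712 to 767 in HC11, and the upstream stretch 1455 to 1585 and 1217 to 1407. Further out on the same side, over the 297 listed ends 90 to 200 kb upstream, the level was 792, 827 and 879 local CPM per listed end in BC44 and 810, 799.98 and 695 in HC11, which overlapped. The single windows there are given with the window fit.

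**Figure D2:**
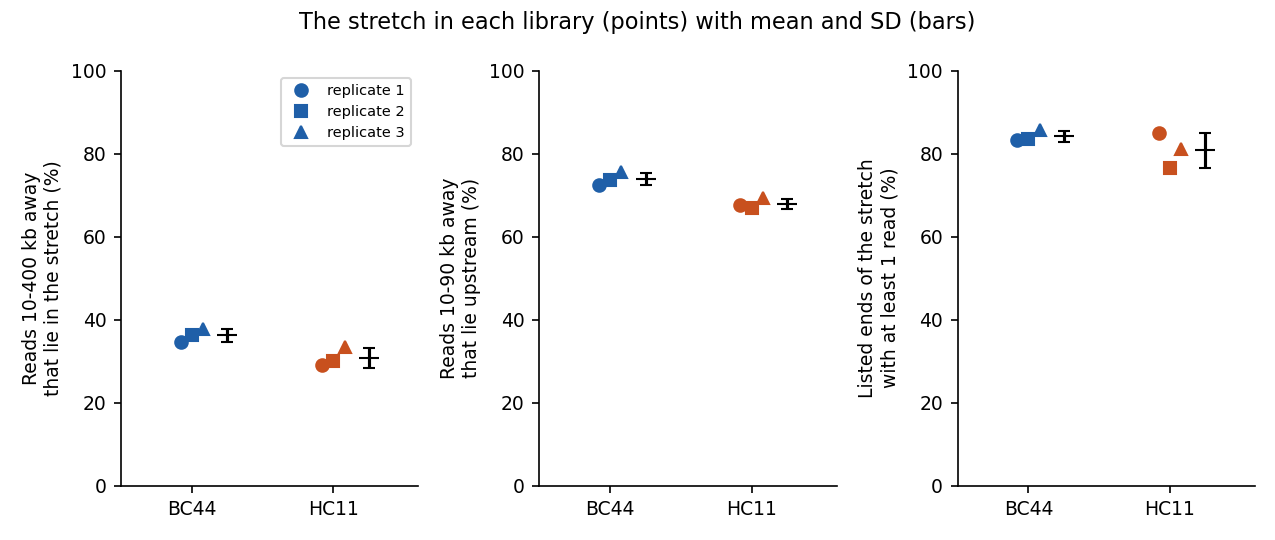
Each point is 1 library, coloured by line and shaped by replicate number, and the bars give the mean and SD of 3 libraries. The panels show the percent of reads 10 to 400 kb away that lie in the stretch, the percent of reads 10 to 90 kb away that lie upstream, and the percent of listed ends in the stretch with a read. BC44 lies above HC11 without overlap in the first panel (36.2% against 30.8%) and the second (73.9% against 67.9%), and the lines overlap in the last.

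Inside the stretch, signal did not fall evenly with distance. Per listed end, the window 20 to 30 kb upstream was the highest of the 8 windows of 10 kb, with 2657, 2498 and 2814 local CPM in BC44 and 2168, 2106 and 2182 in HC11. It stood above the nearer window, 10 to 20 kb upstream, in 6 of 6 libraries, where the values were 2100, 2254 and 2037 in BC44 and 1575, 2076 and 1657 in HC11. HC11 replicate 2 had the smallest gap, from 2076 to 2106. From the window 30 to 40 kb to the window 80 to 90 kb the mean level per listed end went from 1579.7 to 827 local CPM in BC44 and from 1367 to 848 in HC11, and not by even steps. In BC44 the means of the 3 windows from 40 to 70 kb were 1333, 1301 and 1323.

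**Figure D3:**
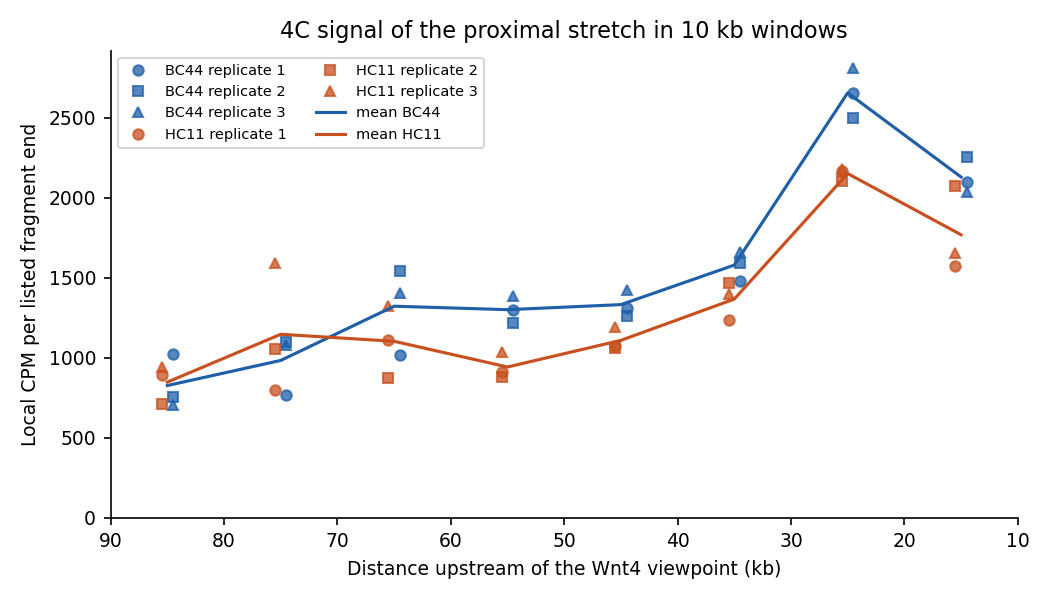
The x axis gives distance upstream of the viewpoint and the y axis local CPM per listed fragment end in windows of 10 kb. Points are libraries and lines are means of 3 libraries per line. The window 20 to 30 kb upstream is the highest in both lines (means 2656 and 2152), and the BC44 mean lies above the HC11 mean in the 6 windows from 10 to 70 kb.

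The 8 windows were then compared between lines within a fit of all 78 windows of 10 kb that lie 10 to 400 kb away on either side (edgeR's quasi-likelihood test, Benjamini-Hochberg adjusted over the 78). None of the 8 passed an adjusted p of 0.05, nor did any of the 78 (0% called). Simulated 1.5-fold changes at 20 windows drawn from all 78 were recovered at 6.0%, so differences of that size would mostly be missed over the 78. Recovery in the 8 windows alone was not simulated. At an unadjusted p under 0.05 stood 11 of the 78 windows (14.1%), and 5 of the 8 were lower in HC11, where 8.97% of all windows were. The SEs ran from 0.10 to 0.27 in the 8 windows and from 0.16 to 1.33 in the others. An equal change thus reaches a low p more readily in the stretch than in windows with a larger SE. The 8 log2 fold changes, HC11 over BC44, had a median of -0.39, and 7 of 8 were below 0. Over all 78 windows the median was 0.08 and 44.9% were below 0. The next windows outwards were alike in sign: 9 of the 11 windows 90 to 200 kb upstream were below 0, with a median of -0.35, and so were all 9 windows from 130 to 220 kb, singled out after their values were seen, at -0.48 to -0.21. Estimates below 0 were thus not limited to the stretch, and a difference between it and those windows was not tested. Without TMM scaling the median of all windows moved by 0.12 to 0.20, and the 6 windows from 10 to 70 kb stayed below 0, between -0.46 and -0.21.

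The windows 20 to 30 kb and 50 to 60 kb upstream had the lowest 2 p-values of the 78. The first held 32 listed ends and stood at 85033, 79922 and 90049 local CPM in BC44 and 69362, 67399 and 69827 in HC11, which did not overlap. Its log2 fold change was -0.43 (SE 0.10, edgeR adjusted p = 0.0505). The second held 40 listed ends, both pseudogenes among them, and stood at 51864, 48831 and 55443 local CPM in BC44 and 36424, 35131 and 41584 in HC11, again with no overlap. Its log2 fold change was -0.59 (SE 0.14, edgeR adjusted p = 0.0505), the steepest of the 8. Blocking on the replicate number brought both windows past the threshold, at an edgeR adjusted p of 0.0146, and no other of the 78 did (2.56% called lower in HC11). Leaving out the highest end of every window changed these estimates little, to -0.39 and -0.54 (edgeR adjusted p = 0.0512 for both). The first also passed without BC44 replicate 3, where its edgeR adjusted p was 0.0139. Without any other single library its edgeR adjusted p was between 0.0962 and 0.306. For the second, leaving out 1 library gave an edgeR adjusted p between 0.0744 and 0.295. The DESeq2 adjusted p was 0.114 for the first and 0.0568 for the second. Limiting reads per end to the 99th percentile brought both past the threshold (edgeR adjusted p = 0.0477 and 0.0199). With captured ends in place of reads the log2 fold changes were 0.044 and -0.066 (edgeR adjusted p = 0.997 for both). In the first window 29 to 32 of the 32 listed ends had reads in each library. The count of captured ends there could hardly follow a change in reads.

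The windows between and beside them ran the same way with wider errors. Log2 fold changes were -0.39 (SE 0.17) at 10 to 20 kb, -0.33 (SE 0.14) at 30 to 40 kb, -0.39 (SE 0.15) at 40 to 50 kb and -0.40 (SE 0.21) at 60 to 70 kb, with edgeR adjusted p between 0.258 and 0.501. All 6 windows from 10 to 70 kb were below 0 in 13 of 13 alternatives that use reads, and so were 12 of 12 windows of 5 kb over the same interval. These settings reuse the same libraries and reads and are not independent, and the limit at 70 kb was not planned. Beyond 70 kb the estimates were 0.09 (SE 0.27) and -0.08 (SE 0.23), and their sign changed with single libraries. The window 70 to 80 kb upstream had 19971, 28642 and 28133 local CPM in BC44 and 20709, 27444 and 41335 in HC11, the last of these being the library with the high end at 136756399. Lines did not overlap in 4 of the 8 windows, those from 20 to 60 kb, with BC44 above in each, where 8.97% of all windows had BC44 above and 6.41% had HC11 above. On the TMM scale the window 10 to 20 kb joined them, for 5 of 8. On that scale 9 of all 78 windows had BC44 above and 3 had HC11 above. With windows of 20 kb, 20 to 40 kb and 40 to 60 kb upstream were lower in HC11 (log2 fold changes -0.42 and -0.53, edgeR adjusted p = 0.00852 and 0.00409), where 7.5% of all 20 kb windows were called lower.

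**Figure D4:**
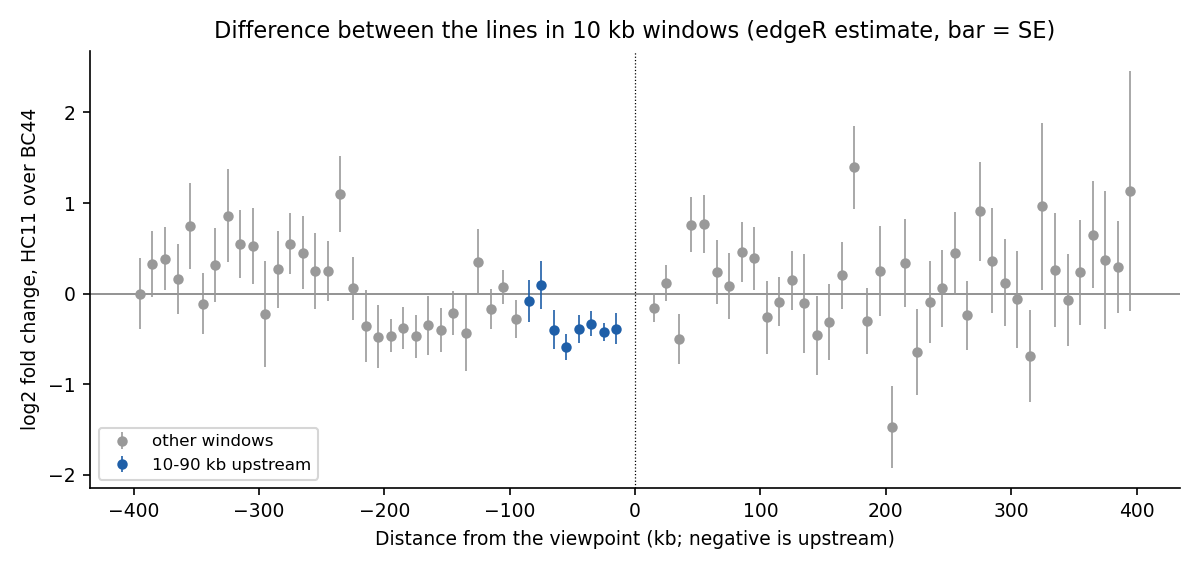
Each point is a window of 10 kb, placed by its distance from the viewpoint with upstream to the left, and the y axis gives the log2 fold change of HC11 over BC44 with its SE from edgeR. Blue points are the 8 windows 10 to 90 kb upstream and grey points the other windows of the 78. The 6 blue points nearest the viewpoint lie between -0.59 and -0.33, and the outer 2 lie at 0.09 and -0.08.

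No single member passed a test of its own. Ends were fitted over the whole chromosome, which left 1728 with at least 10 reads in at least 3 libraries, 191 of them members. With edgeR 0 of 1728 passed (0% called), and the smallest adjusted p of a member was 0.984. At an unadjusted p under 0.05 stood 3 members and 42 of all ends. DESeq2 called 32 ends, 0.924% of those it tested being lower in HC11, and 0 members. Member log2 fold changes had a median of -0.36 and 70.2% were below 0, against a median of -0.04 and 51.2% over all 1728. The median SE of a member's log2 fold change was 1.13. In simulations at these spreads, changes at 60 of the members were recovered at 0.0% for 4-fold, 16.7% for 16-fold and 45.7% for 64-fold. Most changes of these sizes at single members were thus missed. With a low spread set for every end, 62.5% of 2-fold and 98.2% of 4-fold changes at 200 of the 1728 ends were recovered.

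Lines did not overlap at 8 members, all with BC44 above, or 8 of the 191 tested. Over all tested ends 4.22% had BC44 above and 4.22% had HC11 above, so the count with BC44 above was near its background, and the count with HC11 above was 0. The end with the lowest p was the one at 136778622, inside Gm13002, with 2710, 3085 and 5491 local CPM in BC44 and 978, 947 and 983 in HC11 (log2 fold change -2.13, SE 0.70, edgeR adjusted p = 0.984). Its 44 bases occur at 1 DpnII end of the genome exactly and at 2 when up to 2 mismatches are allowed. At 136781355 the values were 3166, 3795 and 4185 in BC44 and 1424, 1872 and 2185 in HC11. At 136773867 they were 2357, 1883 and 2096 in BC44 and 475, 1101 and 703 in HC11. These 3 ends, singled out after their values were seen, made up 42.1% of the difference of the window 50 to 60 kb upstream, in which 25 of 40 ends had a lower mean in HC11 and 13 a higher one. The end at 136790229, 41.9 kb upstream, had 104, 54.4 and 224 local CPM in BC44 and 0 reads in every HC11 library. It passed the filter only through BC44, where it was higher, so neither its p nor its place among the 8 supports anything here. The floor of 3 reads in HC11 replicate 2 is 66.1 local CPM, above BC44 replicate 2, so that a lack of overlap was not detectable there. The BC44 mean was 4.64 times the mean of the 3 HC11 floors, 2.88 times without BC44 replicate 3 and 15.7 times without HC11 replicate 2. This ratio is not a measured difference, since the end was kept for its level in BC44. The remaining 2 of the 5 lowest p-values, at 136804451 and 136794234, had log2 fold changes of -1.69 (SE 0.71) and -2.29 (SE 1.13), both with an edgeR adjusted p of 1.00. The former was -1.07 without BC44 replicate 3, and the latter -3.50 without HC11 replicate 2 and -1.35 in replicates 2 and 3 only.

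The last comparison asked where signal exceeded what distance alone gives. Each library was averaged over a running window of 21 listed ends and divided by a background that can only fall with distance, and an end was called in a line by a rank product over its 3 libraries (adjusted p under 0.1) together with a high median ratio. In BC44 1 of 229 members over 15 kb away was called, where 0.384% of 2084 ends within 400 kb were. In HC11 none of the 229 was called (0 members), where 0.48% of ends were. Both counts were near what these background shares give. The called end was 136765891, with ratios of 1.09, 1.61 and 1.56 in BC44 replicates 1, 2 and 3 and of 1.26, 1.16 and 1.45 in HC11. Its adjusted p from the gamma approximation of the rank product, over 2084 ends, was 0.0270 in BC44 and 0.120 in HC11. The lines overlapped at this end, and a difference between them was not tested. BC44 replicate 1 was the lowest of the 6 libraries. The call was kept at an adjusted p under 0.05 and without BC44 replicate 1, and it was lost without BC44 replicate 2 or 3, at running windows of 11 or 31 ends and at a stricter ratio threshold. At a running window of 11 ends HC11 had 3 called members, at 136755153, 136755867 and 136756399, the last of which is the end that was high in HC11 replicate 3. The end at 136755867 had 0 reads in all 6 libraries, so its running mean came only from neighbouring ends. These 3 members were the only calls of HC11 in the stretch among its settings.

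The running ratio peaked at different positions in different libraries. Its highest value in the stretch lay at 136780225 in replicate 1 of both lines, at 136765891 in BC44 replicates 2 and 3, and at 136756399 in HC11 replicates 2 and 3. Averaged over the 6 libraries it was lowest at 136773867, 58.2 kb upstream, at 0.604, 0.531 and 0.733 in BC44 and 0.411, 0.756 and 0.459 in HC11. Closer to the promoter it was highest at 136780225, 51.9 kb upstream, at 1.45, 1.25 and 1.25 in BC44 and 1.40, 1.13 and 1.27 in HC11. All 6 libraries were under 1 at the former and over 1 at the latter, and the lines overlapped at both. These positions were chosen after the profile was seen and carry no test.

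**Figure D5:**
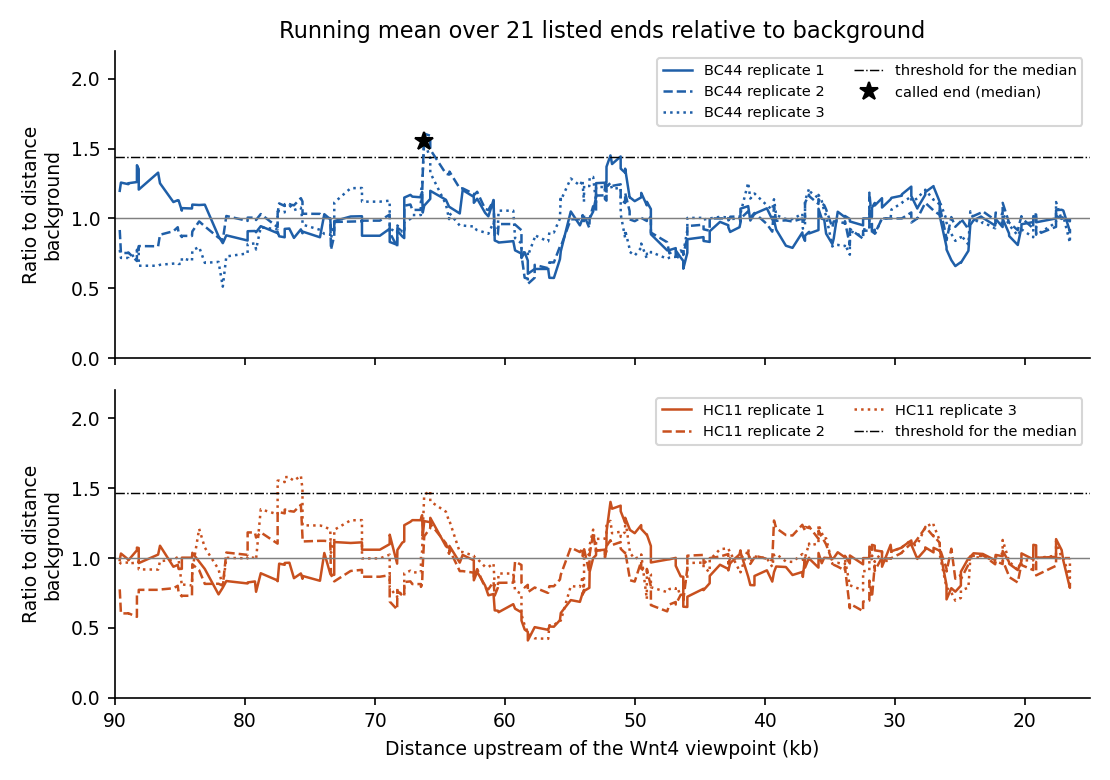
The x axis gives distance upstream of the viewpoint and the y axis the running mean over 21 listed ends divided by the distance background, with BC44 above and HC11 below and 1 line per library. The dash-dotted line is the threshold for the median ratio (1.44 in BC44 and 1.46 in HC11) and the star marks the 1 called end, 66.2 kb upstream. All libraries dip under 1 near 58.2 kb and rise over 1 near 51.9 kb.

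The stretch was searched on both strands for motifs of the factors the series names. The 8-base Grainyhead motif AACCGGTT had 0 matches, and 14.2% of 1881 chromosome 4 regions of the same length had at least 1. Its looser form AACNNGTT, which includes it, had 7 matches against a median of 13, and 94.8% of such regions had at least as many. One of them, AACAGGTT, began 74 bases from the called end and lies within its printed piece. The half-site of progesterone and related steroid receptors, TGTTCT, had 59 matches against a median of 84. The full palindromic form, GNACA and TGTNC with any 3 bases between them, had 2 matches, and 38.7% of such regions had at least as many and 74.3% at least 1. One of these was GAACACAGTGTTC, at 136769619 to 136769631 and 62.5 kb upstream. It lay inside the running window behind the called end (136763827 to 136769966). The other match, at 136751013 to 136751025 and 81.1 kb upstream, lay outside that window. Among regions of 300 bases, 0.492% held the full palindromic form and 4.69% the looser Grainyhead form. How often a match falls in a span as long as the running window was not tested. A link between the matches and the called end was not tested either. The 300 bases around the match at 136769619 are shown because the receptor is named in the study's title, with the match in capitals.
chr4:136769475-136769774, mm9, plus strand: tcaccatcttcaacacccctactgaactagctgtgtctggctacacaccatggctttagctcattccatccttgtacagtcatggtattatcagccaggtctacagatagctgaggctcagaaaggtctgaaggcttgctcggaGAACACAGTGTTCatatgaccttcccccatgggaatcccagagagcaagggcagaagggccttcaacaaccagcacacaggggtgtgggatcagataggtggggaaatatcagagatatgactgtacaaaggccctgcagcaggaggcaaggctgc
The listed end nearest to that match, at 136769707, had 608, 1163 and 949 local CPM in BC44 and 619, 551 and 654 in HC11, which overlapped. The other listed end of the printed region, at 136769710, had 629, 4810 and 2438 in BC44 and 1220, 2511 and 3802 in HC11, which also overlapped. A motif match is a description of sequence.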

How the data were processed

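The authors mapped first reads to mm9 with the de Wit laboratory's 4C mapping pipeline at default settings, per the series' design text, and deposited raw read counts per fragment end. Counts on chromosome 4 were analysed here, with the matching NCBIM37 sequence and GENCODE M1 genes. Reads carry no stated molecular identifiers, so intervals and floors cover counting error only. Libraries were grouped by the line in their titles. The members, lists and named items were chosen with earlier results of these data known. Named were the 8 windows, the 10 highest members, the 5 with the lowest p, called contacts and annotated genes; the 8 members without overlap were added after their values were seen.

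Counts were summed over 10 kb windows from 10 to 400 kb, or kept per end beyond 2 kb, filtered at 10 reads in at least 3 libraries, and fitted with edgeR 4.0.16 (TMM, quasi-likelihood, cell line only; SE from the F statistic), with DESeq2 1.42.0 as an alternative. Shares used two-sided exact permutation over the 20 relabellings. Contact calls followed the logic of peakC, rewritten with isotonic regression (scikit-learn 1.9.0). Scripts were tested on simulated data. At these window spreads 6.0% of 1.5-fold, 31.8% of 2-fold and 91.2% of 4-fold changes at 20 of the 78 windows were recovered. Same-numbered libraries deviated together (Pearson's r of deviations from line means over 78 windows 0.143, 0.311 and 0.362 for replicates 1, 2 and 3), so the replicate block is given where it changes a call.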

Additional observations from a re-analysis of the deposited data

How the results depend on the processing

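The share of nearby reads in the stretch and the upstream share of reads 10 to 90 kb away kept their direction in all read-based alternatives, and leaving out 1 library moved their differences only between -6.76 and -4.50 and between -6.68 and -5.21 percentage points. Captured ends in place of reads turned the upstream share to 0.429 points and the share of the stretch's reads lying 10 to 50 kb away, whose difference was -1.17 points (exact permutation p = 0.8), to 0.987 points. That last share ranged from -3.05 to 0.968 points when 1 library was left out and rested on HC11 replicate 3. The share of captured members turned to 1.68 points in the replicate 1 pair, a setting chosen after seeing the data like the limit to ends of 51 to 200 bp. The share of reads at the 10 highest members was 21.4% ± 0.390 in BC44 and 22.6% ± 0.730 in HC11 (SD, n = 3, exact permutation p = 0.1, adjusted p = 0.167).

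Of all 78 windows 0 were called, against 2 with the replicate block, 2 with reads per end limited to the 99th percentile, and 4 with 20 kb windows. In the stretch the counts were 0, 2, 2 and 2. Leaving out 1 library gave 0 to 1 windows, both overall and in the stretch, and BC44 replicate 3 was the library whose loss gave 1. No other window's call changed with the block. Of all ends 0 were called, against 32 by DESeq2 and 4 without a filter, none of them a member. The BC44 contact count of 1 was 0 with 11 or 31 ends and with the ratio threshold of 1.5 interquartile ranges, and 0 to 1 when 1 library was left out, being lost without replicate 2 or 3; the HC11 count of 0 was 3 with 11 ends.

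Captured ends turned the windows at 10, 20, 30 and 60 kb to 0.060, 0.044, 0.028 and 0.024 (log2). A captured end counts alike at any number of reads, so these counts, here and above, do not measure read levels. The window 70 to 80 kb was -0.059 with reads per end limited and -0.18 to 0.32 when 1 library was left out. The window 80 to 90 kb was 0.038 without TMM, 0.040 in replicates 2 and 3 only, and -0.16 to 0.052 when 1 library was left out. The cause of these changes was not tested. Depth limits HC11 replicate 2 most.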
